A study of Homo sapiens with 6 samples.

Results

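Ribosome biogenesis factors are the proteins that transcribe, modify, cut and fold ribosomal RNA and join it with ribosomal proteins in the nucleolus. The genes described here are 35 named nucleolar and growth genes, taken by symbol from the 29810 genes of the deposited table. All 35 were found under a single Ensembl identifier each, and 33 could be tested, having 1 FPKM or more (fragments scaled by exon length and library size) in 3 or more libraries out of 6. The study compared Kasumi-1, a human acute myeloid leukaemia cell line carrying the RUNX1-RUNX1T1 fusion, in a control group and an I1 group of 3 samples each. The control samples were kept with an agent labelled only as control, and the I1 samples with 0.125 µM I1, a compound known here by its code name, both for 48 h. All samples come from the same established line with no label for genotype or passage, and nothing says that samples of a group were separate cultures, so p-values reflect the spread among these libraries alone, and that spread may be technical.

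RNA polymerase I copies the ribosomal RNA genes into a long precursor, which box C/D particles methylate and box H/ACA particles pseudouridylate. Factors of the small and of the large subunit then cleave and fold the precursor on separate paths towards export. Many of these genes are textbook targets of MYC, which binds with MAX to the E-box, the palindrome CACGTG, and the growth genes of the set, such as those of polyamine synthesis, are known MYC targets too. Proliferating leukaemic blasts depend on ribosome production, and a mutated NPM1 defines a subtype of acute myeloid leukaemia.

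A feature that many of these genes shared lay in their promoters. Since many of them are known MYC targets, their choice by name was not independent of the E-box. RefSeq promoter windows (GRCh38.p14), running from 250 bases before to 50 bases after an annotated start, were matched for 30 of the 35 genes, with 40 windows in all. CACGTG stood in 16 of these 40 windows (40.0%), against 1176 of the 12089 windows of tested genes (9.73%) and 2548 of all 35116 windows (7.26%). The ETS-type motif CCGGAAGT, searched on both strands, was in 6 of the 40 windows (15.0%), against 8.26% of the windows of tested genes. A match is a description of the letters and does not show binding. The windows below are shown because their genes, described further on, lie towards either end of the range of differences or, for ODC1, carry the motif at 2 places. Each is written on the strand of its gene with the motif in capitals, and the position is that of the first capital, counted from +1 at the start with no position 0.
DDX21 (chr10:68956589-68956646, plus strand, -31): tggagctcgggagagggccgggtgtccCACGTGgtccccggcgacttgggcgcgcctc
UTP20 (chr12:101280068-101280104, plus strand, -10): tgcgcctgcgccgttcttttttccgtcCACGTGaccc
WDR43 (chr2:28894658-28894687, plus strand, 4): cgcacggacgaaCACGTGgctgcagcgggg
SRM (chr1:11060185-11060244, minus strand, -199): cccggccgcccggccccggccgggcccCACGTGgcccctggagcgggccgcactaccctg
ODC1 (chr2:10448013-10448068, minus strand, -29): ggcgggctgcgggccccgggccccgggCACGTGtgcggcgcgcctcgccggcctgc
ODC1 (chr2:10447990-10448019, minus strand, 6): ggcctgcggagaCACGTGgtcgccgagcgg
RRP9 (chr3:51941892-51941921, minus strand, -5): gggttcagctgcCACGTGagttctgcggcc
FBL (chr19:39846356-39846385, minus strand, 7): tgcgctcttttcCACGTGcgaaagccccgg
PES1 (chr22:30591880-30591909, minus strand, 14): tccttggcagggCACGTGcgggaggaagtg
SLC19A1 (chr21:45541797-45541826, minus strand, 33): ttcgcgcccaggCACGTGttgcttcgggac

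Library totals, recovered from the steps of low values, lay between 17331000 and 18204000 fragments in control and between 16391000 and 16948000 with I1. Among the tested genes of the set, 31 had whole read numbers, from 235 to 28816 reads in a library. Of the myeloblast markers 8 of 8 were at 1 FPKM or more in all libraries, with summed levels of 9763 to 13895 FPKM in control and 8949 to 10596 with I1, most of it from MPO. The T cell, B cell, erythroid, monocyte and fibroblast markers in the table (13 genes) summed to at most 2.28 FPKM per list in any library. Of the epithelial markers KRT8 was at 0, while EPCAM lay at 23.2, 27.6 and 24.0 FPKM in control and at 26.7, 27.3 and 31.3 with I1. Control replicate 1 stood apart on the first principal component (-43.8, the other libraries -2.90 to 19.8), and differences of the genes described below are also given without it where that moved them by more than 1.5 times.

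No ribosome biogenesis or growth gene passed the test between I1 and control, made with limma on log2(FPKM + 1) with Benjamini-Hochberg adjustment over all 11913 tested genes. A gene was called where its adjusted p was under 0.05 and its log2 fold change reached 1 in either direction. Of the 33 genes 0 rose (0.0336% of all tested genes did) and 0 fell (0% did), and at an unadjusted p under 0.05 the count was also 0 of 33, against 9.57% of all tested genes. Their log2 fold changes ran from -0.28 for RRP9 to 0.41 for DDX21, and adjusted p-values from 0.467 to 0.977. The 95% interval of the difference lay within 1 in size for 33 of 33 genes, with the widest bounds at -0.65 (BOP1) and 0.97 (UTP20). A change of 2-fold on this scale was thus outside each interval, while smaller ones were not. This holds for log2(FPKM + 1) alone. With a pseudocount of 0.1 UTP20 had 0.40 ± 0.308 (SE), against 0.35 ± 0.267 here, and a 2-fold change is not excluded for it on that scale. The median was 0.02, beside 0.03 over all tested genes, and 18 of the 33 were above 0 (54.5% in the set and 54.5% of all tested genes). Leaving out control replicate 1 moved the log2 fold change by more than 1.5 times in 25 of the 33 genes: 21 became smaller, NOP56 and MRTO4 larger, and GAR1 and RCL1 turned in sign. This count was not made over all tested genes, so it cannot be read as a trait of the set. The median over all tested genes went from 0.03 to 0.02 by the same step. For genes with a difference near 0, such as NOP56, a small shift is enough to pass this ratio. In bulk RNA, fewer cells of a type and less RNA per cell cannot be told apart.

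The set covered a wide range of abundance, and 18 of its 33 tested genes lay above the 90th percentile of level among tested genes. NPM1 was the most abundant with a mean of 417 FPKM over the 6 libraries, and RCL1 the least abundant of those tested with 3.48 FPKM. Together the 35 genes took 0.612%, 0.687% and 0.592% of all FPKM in the controls and 0.673%, 0.705% and 0.630% with I1, and in this share the groups overlapped.

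**Figure D1:**
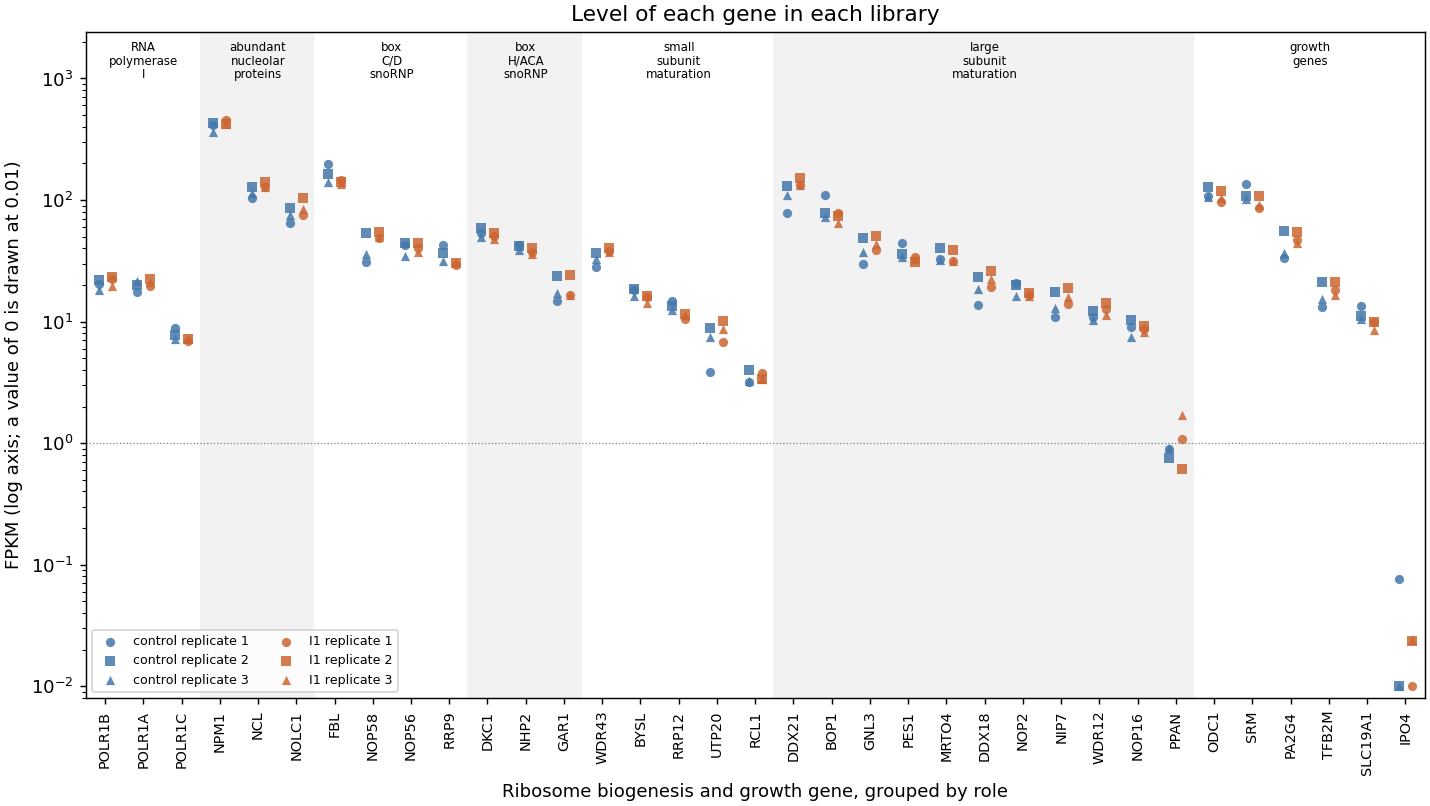
FPKM of the 35 genes on a log axis, 1 point per library, blue for control and orange for I1, with replicate 1 as circles, 2 as squares and 3 as triangles; values of 0 are drawn at 0.01 and the dotted line is 1 FPKM. Points of both groups lie close together for most genes, control replicate 1 is low for DDX21 and UTP20 and high for BOP1, and PPAN and IPO4 lie near or below the dotted line.

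RNA polymerase I was represented by its largest subunit POLR1A, its other catalytic subunit POLR1B, and POLR1C, which it shares with RNA polymerase III. POLR1B (ENSG00000125630, chr2:112541915-112577150 on hg38, plus strand) had 20.3, 22.1 and 18.1 FPKM in control and 22.4, 23.4 and 19.6 with I1. The groups overlapped, although I1 was higher in 3 of 3 same-numbered pairs, and the log2 fold change was 0.11 ± 0.127 (SE). POLR1C (ENSG00000171453, chr6:43509702-43562419, plus strand) had 8.87, 7.77 and 7.18 FPKM against 6.89, 7.20 and 7.39, for a log2 fold change of -0.13 ± 0.121 (limma adjusted p = 0.603). Control replicate 1 was its highest library and I1 replicate 1 its lowest, and without control replicate 1 the value was -0.05. POLR1A went from 19.6 ± 2.06 to 21.0 ± 1.502 FPKM (SD, n = 3 each), also within the overlap, for a log2 fold change of 0.10 that was 0.02 without control replicate 1.

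The abundant nucleolar proteins all had values above 0 for the difference, none past the test. NPM1 (ENSG00000181163, chr5:171387116-171411137, plus strand), a chaperone of ribosome assembly that shuttles between nucleolus and cytoplasm, had 412, 430 and 363 FPKM in control and 459, 420 and 418 with I1. Its 2 highest libraries were of different groups, and the log2 fold change was 0.11 ± 0.130. NCL, nucleolin, which binds nascent ribosomal RNA, had 116 ± 12.7 and 132 ± 7.47 FPKM (log2 fold change 0.20, adjusted p = 0.495, and 0.12 without control replicate 1). NOLC1 (ENSG00000166197, chr10:102152176-102163871, plus strand), a phosphoprotein that accompanies small nucleolar particles, had 64.5, 86.0 and 74.97 FPKM against 75.9, 103 and 84.4. Here I1 was the higher library in each same-numbered pair while the groups overlapped, with a log2 fold change of 0.22 ± 0.161 (adjusted p = 0.523, and 0.12 without control replicate 1).

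Of the 4 proteins of box C/D particles 0 passed the test, with values above 0 for 2 and below 0 for 2. FBL (ENSG00000105202, chr19:39834458-39846414, minus strand), fibrillarin, the methyltransferase of these particles, had 197, 162 and 141 FPKM in control and 146, 140 and 136 with I1. Control replicate 1 was highest, control replicate 3 fell inside the I1 range, and the log2 fold change was -0.23 ± 0.145 (-0.11 without control replicate 1). Of the paired core proteins, NOP56 had 40.6 ± 5.27 and 40.7 ± 3.34 FPKM, so that its difference was 0.0081 on the log2 scale (0.05 without control replicate 1). NOP58 (ENSG00000055044, chr2:202265716-202303666, plus strand) had 31.1, 53.9 and 35.9 FPKM against 48.9, 54.6 and 49.5, with control replicate 2 inside the I1 range. Its log2 fold change was 0.37 ± 0.196 (limma adjusted p = 0.467), and 0.21 without control replicate 1. RRP9 (ENSG00000114767, chr3:51933430-51941941, minus strand), the protein specific to the U3 particle, had 42.6, 36.4 and 31.3 FPKM in control and 29, 30.3 and 30.7 with I1. All I1 values were below all control values, by a small gap to control replicate 3, and the log2 fold change was -0.28 ± 0.135 (limma adjusted p = 0.467, and -0.17 without control replicate 1).

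For the box H/ACA particles the groups overlapped in each of the 3 genes. DKC1 (ENSG00000130826, chrX:154762742-154777689, plus strand), dyskerin, the pseudouridine synthase, had 53.9, 59.1 and 49.4 FPKM in control and 50.2, 53.3 and 48.1 with I1. NHP2 (ENSG00000145912, chr5:178149460-178153967, minus strand), a core protein, had 42.9, 41.9 and 39.1 against 37.7, 40.4 and 36.3. Both were lower with I1 in 3 of 3 pairs, by log2 fold changes of -0.09 ± 0.118 and -0.11 ± 0.109. GAR1, the remaining core protein, varied more by replicate number than by group, at 14.8, 23.6 and 17.2 FPKM in control and 16.5, 24.1 and 16.4 with I1. Its log2 fold change was 0.04 ± 0.209, and -0.11 without control replicate 1.

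Among the 5 genes of small subunit maturation, WDR43 was higher and RRP12 lower with I1 in all libraries. WDR43 (ENSG00000163811, chr2:28894643-28948222, plus strand), a subunit of the early processome that couples it to transcription, had 28.2, 37.0 and 32.7 FPKM in control and 38.2, 40.3 and 37.1 with I1. The lowest I1 library lay just above control replicate 2, and the log2 fold change was 0.24 ± 0.130 (adjusted p = 0.467, and 0.14 without control replicate 1). RRP12 (ENSG00000052749, chr10:97356358-97426076, minus strand), which takes part in subunit export, had 14.8, 13.4 and 12.51 FPKM against 10.6, 11.5 and 11.3. The groups did not overlap, at a log2 fold change of -0.26 ± 0.116, and its unadjusted p of 0.0522 was the lowest of the set (limma adjusted p = 0.467). UTP20 (ENSG00000120800, chr12:101280109-101386616, plus strand), a large scaffold protein, had 3.83, 8.78 and 7.49 FPKM in control and 6.76, 10.1 and 8.61 with I1. Control replicate 1 was by far its lowest library, and the log2 fold change went from 0.35 ± 0.267 to 0.04 without it. BYSL, bystin, had 17.6 ± 1.24 and 15.5 ± 1.19 FPKM, and RCL1, the processome's cyclase-like protein, 3.46 ± 0.455 and 3.502 ± 0.251 (log2 fold change 0.02, and -0.03 without control replicate 1).

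Of the 10 tested large subunit factors 0 passed the test, with values above 0 for 5 and below 0 for 5. DDX21 (ENSG00000165732, chr10:68956128-68985073, plus strand), an RNA helicase of polymerase I transcription and ribosomal RNA processing, was at once the most abundant of this role and had the largest difference of the set. It had 78.6, 130 and 111 FPKM in control and 132, 153 and 134 with I1, so that the groups did not overlap, while control replicate 2 came close to the lowest I1 library. The log2 fold change was 0.41 ± 0.189 (95% interval -0.02 to 0.85, adjusted p = 0.467), and 0.21 without control replicate 1. BOP1, PES1 and WDR12 form the PeBoW complex, which is needed to process the large subunit's RNA. BOP1 had 86.9 ± 20.9 and 72.3 ± 6.88 FPKM and PES1 38.1 ± 5.82 and 32.6 ± 1.60, each lower with I1 in 3 of 3 pairs. WDR12 had 11.1 ± 0.981 and 12.7 ± 1.44 FPKM and was higher in 3 of 3, and none of the 3 passed the test (adjusted p = 0.525, 0.498 and 0.519). Their log2 fold changes were -0.24, -0.21 and 0.18, without control replicate 1 they were -0.06, -0.09 and 0.16, and after the GC correction described below all 3 turned in sign (0.05, 0.0069 and -0.04).

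The other large subunit factors kept to the same narrow range. The helicase DDX18 and the nucleolar GTPase GNL3, nucleostemin, had log2 fold changes of 0.29 ± 0.202 and 0.20 ± 0.193, and of 0.09 and 0.03 without control replicate 1. NIP7, a factor of late nucleolar steps, had 0.24 ± 0.188 (0.10 without that library), on 13.7 ± 3.47 FPKM in control and 16.2 ± 2.39 with I1. NOP2, an RNA methyltransferase, had -0.17 ± 0.124, MRTO4, which holds a place on the large subunit during assembly, -0.05 ± 0.141, and NOP16 -0.03 ± 0.137. Without control replicate 1 these 3 had -0.11, -0.09 and -0.02. For each of these 6 genes the groups overlapped.

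The growth genes of the set include enzymes outside the nucleolus. ODC1 (ENSG00000115758, chr2:10439968-10448504, minus strand), the rate-limiting enzyme of polyamine synthesis, had 107, 129 and 105 FPKM in control and 96.5, 119 and 104 with I1. Its difference on the log2 scale was -0.10 ± 0.137. SRM, spermidine synthase, the next enzyme of that path, had 115 ± 17.6 and 94.5 ± 11.5 FPKM (-0.27 ± 0.152, adjusted p = 0.467, and -0.15 without control replicate 1). In both genes the groups overlapped. SLC19A1 (ENSG00000173638, chr21:45493572-45544411, minus strand), the reduced folate carrier, had 13.3, 11.1 and 10.5 FPKM against 9.86, 9.97 and 8.47. Its I1 libraries were all below the controls, at a log2 fold change of -0.27 ± 0.133 (adjusted p = 0.467, and -0.18 without control replicate 1). PA2G4, a growth regulator that binds ribosomes, had 42.0 ± 12.1 and 48.7 ± 5.27 FPKM, and TFB2M, a transcription factor of mitochondrial DNA, 16.5 ± 4.08 and 18.6 ± 2.47. Their log2 fold changes were 0.24 and 0.18, and 0.09 and 0.04 without control replicate 1.

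Counted over the set, groups did not overlap for WDR43 and DDX21 with I1 higher (2 of 33, against 12.9% of tested genes) and for RRP9, RRP12 and SLC19A1 with I1 lower (3 of 33, against 8.74%). These shares, 6.06% and 9.09%, are near or under the background. Genes higher in 3 of 3 same-numbered pairs numbered 12 and genes lower in 3 of 3 also 12, 36.4% each, against 32.1% and 25.8% of tested genes. With the replicate number as a block 0 of 33 genes had an adjusted p under 0.05 (0.0504% of all did) and the lowest was 0.140, while 12 of 33 had an unadjusted p under 0.05, 36.4% against 27.1% of all tested genes.

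The sign of the difference went with the base composition of the transcripts, in the set as in all tested genes. GC content was taken from the longest transcript of each gene, and the boundaries of 45% and 55% were chosen after the values were seen. Of the 10 genes under 45% GC, 10 were above 0 with a median of 0.22, and of the 9 genes over 55% GC, 9 were below 0 with a median of -0.24. The 14 genes between had a median of 0.01, with 8 above 0. All tested genes divided alike, with medians of 0.26 below 45% GC (4185 of 4613 above 0) and -0.19 over 55% GC (2948 of 3277 below 0). Across the 33 genes Spearman's rho between GC content and log2 fold change was -0.858 and Pearson's r -0.866, as a description over genes that share the same 6 libraries. Across 11899 tested genes rho was -0.753. Within box C/D particles the order by GC content, NOP58 (41.3%), NOP56 (50.9%), FBL (54.3%) and RRP9 (60.9%), was also the order of the differences from highest to lowest. In the PeBoW complex the gene above 0, WDR12, had 40.2% GC, and the genes below 0, PES1 and BOP1, 58.2% and 65.2%.

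**Figure D2:**
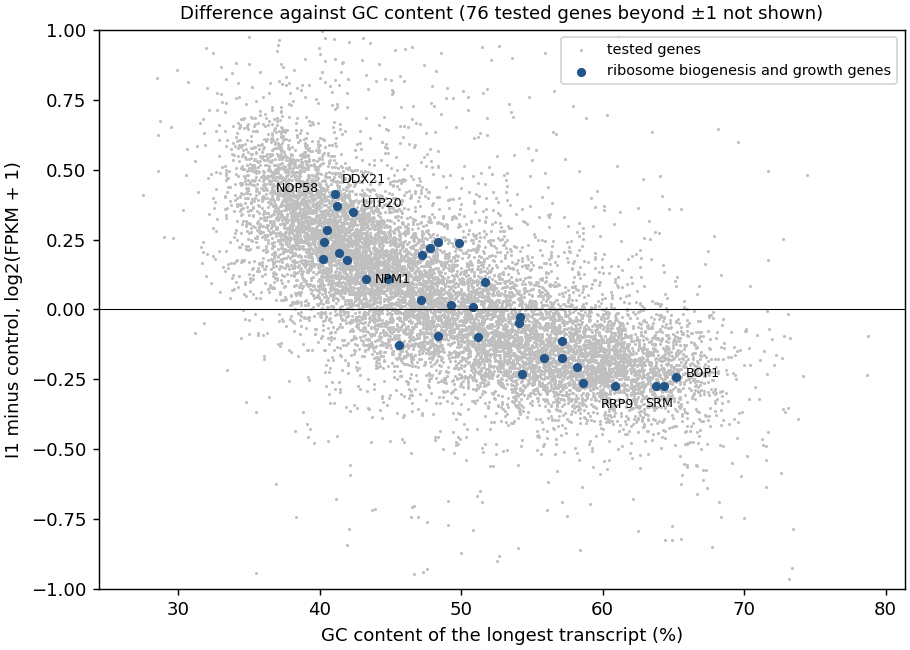
Log2 fold change of I1 against control for each tested gene (grey) and for the 33 tested ribosome biogenesis and growth genes (blue), against the GC content of the longest transcript in percent; 76 tested genes beyond 1 in size are not drawn. The blue points run from DDX21 and NOP58 at the upper left to BOP1 and SRM at the lower right, inside the grey cloud.

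Single libraries were then set against the mean of all 6, a measure that also carries the group difference. In control replicate 1, 10 of the 10 genes under 45% GC were below their own mean of the 6 libraries, with a median deviation of -0.41 on the log2(FPKM + 1) scale. In the same library 9 of the 9 genes over 55% GC were above their mean, with a median of 0.32. In I1 replicate 2 the GC-poor genes had a median of 0.28 and the GC-rich genes of -0.06, and in control replicate 2 both were above 0 (0.16 and 0.08). In control replicate 3 both were below 0 (-0.15 and -0.02), while I1 replicate 1 had 0.09 and -0.08 and I1 replicate 3 had 0.07 and -0.12. Without control replicate 1 the medians of the I1 difference were 0.12 for the GC-poor and -0.15 for the GC-rich genes, and rho across the 33 genes was -0.799. The cause of these deviations was not tested.

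**Figure D3:**
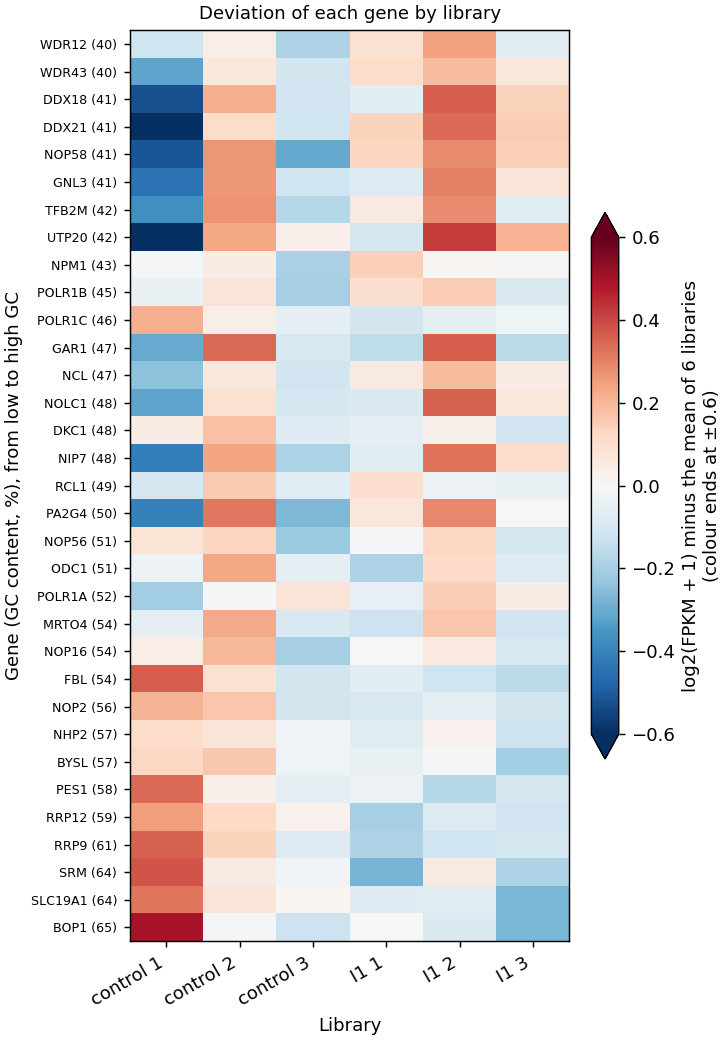
Deviation of log2(FPKM + 1) of each of the 33 tested genes (rows, ordered by GC content) from its mean over the 6 libraries (columns), red above and blue below. Control replicate 1 is blue for the GC-poor rows at the top (median -0.41) and red for the GC-rich rows at the bottom (median 0.32), and I1 replicate 2 is mostly red at the top (median 0.28).

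After the trend with GC content over all tested genes was removed from each library, the differences of the set shrank in size for 24 of 33 genes. The medians became 0.03 for the GC-poor and 0.0069 for the GC-rich genes, and rho within the set -0.211. Over all tested genes rho became -0.0084, which the correction brings about by its construction. It takes out any group difference that goes with GC content, also one brought by I1, so a shrinkage of this kind follows from the method. DDX21 then had 0.22 ± 0.131 (SE), NOP58 0.19 ± 0.148 and UTP20 0.20 ± 0.214, while RRP9 had -0.03 ± 0.112, SRM 0.0029 ± 0.132 and BOP1 0.05 ± 0.121. For the 14 genes of 45% to 55% GC the median went from 0.01 to 0.09. Among these PA2G4 stood at 0.29 ± 0.208, NIP7 at 0.27 ± 0.190, NOLC1 at 0.23 ± 0.160, NCL at 0.19 ± 0.119 and POLR1A, which had 0.10 before the correction, at 0.19 ± 0.132. No gene of the 33 had an unadjusted p under 0.05 by limma after the correction (5.01% of all tested genes did), and the lowest adjusted p was 0.930. With the block as well, POLR1A, NCL, NOLC1, NIP7, DDX21 and PA2G4 had an unadjusted p under 0.05 (6 of 33, 18.2%, against 14.9% of all), each with a limma adjusted p between 0.262 and 0.324.

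**Figure D4:**
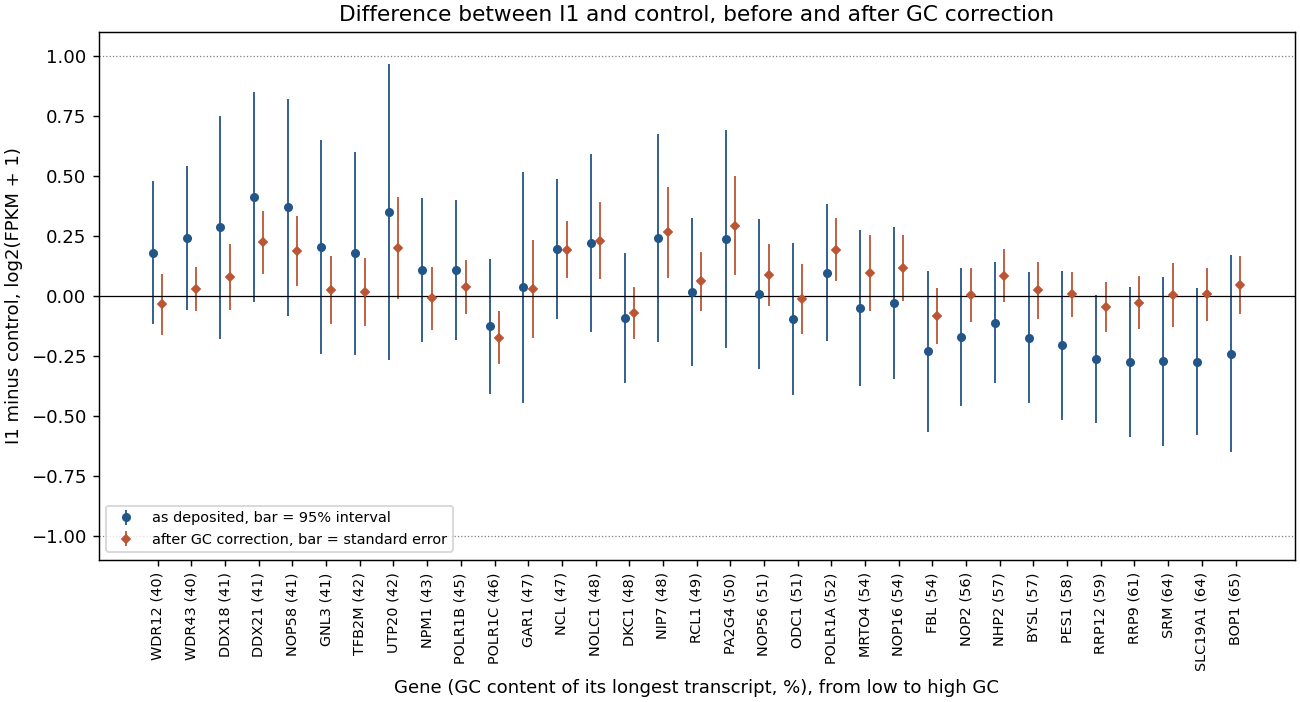
Log2 fold change of I1 against control for the 33 tested genes, ordered by GC content, as deposited (blue circles with 95% intervals) and after removal of the GC trend (orange diamonds with standard errors); dotted lines mark the threshold of 1 in size. Blue points go from above 0 at the left to below 0 at the right with all intervals inside the dotted lines, and orange points of GC-rich genes lie close to 0.

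Genes with and without the E-box in a promoter window were set side by side, with no test between them. The 15 tested genes with CACGTG had a median log2 fold change of -0.10 and a median GC content of 54.1%, with 6 above 0 and 9 below. The 13 tested genes with a window but no match had a median of 0.11 and 48.4% GC, with 9 above 0 and 4 below. The ranges overlapped, from -0.28 to 0.41 with the motif and from -0.13 to 0.24 without it, and without control replicate 1 the medians were -0.11 and 0.05. After the GC correction the medians were 0.02 and 0.08. The motif windows printed above include genes at both ends of the range, DDX21 at 0.41 and RRP9 at -0.28, because they were chosen that way. The relation of the motif to the difference apart from GC content was not tested.

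PPAN and IPO4 did not pass the filter on low values, and their exons are largely shared with other annotated genes. IPO4 (ENSG00000196497), an importin that carries cargo into the nucleus, had 7, 0 and 0 reads in control and 0, 2 and 2 with I1. On its strand 69.3% of its exon bases also belong to the gene AL136295.4, whose level was not analysed here. PPAN (ENSG00000130810), a large subunit factor, had 42, 34 and 42 reads (0.893, 0.760 and 0.919 FPKM) in control and 46, 27 and 73 (1.09, 0.617 and 1.70) with I1. It shares 59.8% of its exon bases with the readthrough gene PPAN-P2RY11 and with P2RY11, which itself had 4.14 to 8.26 FPKM over the 6 libraries. The labels do not say how reads of shared exons were counted, so neither value can be read as the expression of that gene. NOP2 shares 54.4% of its exon bases with AC006064.6 on the same strand, and in all 9 of the 35 genes share at least 10% with another gene on either strand. The same limit therefore holds for the difference given for NOP2 and for its place among the GC-rich genes and those with CACGTG.

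Levels also depend on the exon length that FPKM divides by, which includes rarely used exons. For 25 of the 35 genes GENCODE marks a principal transcript, and the exon total exceeded it by a factor of 1.00 for RRP9 and TFB2M, 2.47 for NPM1 and 4.22 for POLR1C. Divided by the principal transcript in place of all exons, POLR1B went from 21.0 to 29.2 FPKM and NPM1 stood at 1032 FPKM. POLR1C went from 7.55 to 31.9 FPKM by the same step, which would place it above POLR1B. However, POLR1C and NIP7 did not give whole read numbers with these exon totals, so the length behind their deposited FPKM is uncertain. The value of 31.9 for POLR1C and its order against POLR1B are therefore not settled. NPM1 also has 45 annotated pseudogenes by name, of which 16 are in the table. NPM1P27, a copy of this kind, had 45.9 to 52.5 FPKM in control and 53.5 to 55.2 with I1, so that some reads of NPM1 may be counted there or the reverse.

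Other factors of the pathway did not pass the test either. Lists of 144 other factors, for RNA polymerase I and its cofactors, particle assembly, both subunits and the exosome that trims ribosomal RNA, held 141 tested genes, of which 0 rose and 0 fell by limma (15 at an unadjusted p under 0.05, 12 higher and 3 lower). Over all tested genes that share was 9.57%, with 810 higher and 330 lower. Their median log2 fold change was 0.08 at a median GC content of 45.7%, and 0.04 after the GC correction, against 0.03 and 0.05 over all tested genes. Without control replicate 1 it was 0.05. Factors of RNA polymerase I had a median of 0.17 over 14 tested genes, small subunit factors 0.13 over 47, large subunit factors 0.08 over 54, exosome genes 0.11 over 16 and particle assembly genes -0.10 over 10. After the GC correction these medians were, in the same order, 0.12, 0.03, 0.06, -0.03 and -0.08. The genes with the lowest p of these lists were TTF1, which terminates transcription by polymerase I (5.23 ± 0.717 and 7.54 ± 0.453 FPKM, log2 fold change 0.46), and ZNHIT6, an assembly factor of box C/D particles (6.64 ± 1.35 and 8.95 ± 0.463, 0.39). In the subunit and exosome lists they were TSR3, which modifies the small subunit's RNA (15.9 ± 3.73 and 9.93 ± 0.997, -0.61), RRP15 of the large subunit (3.15 ± 0.895 and 5.03 ± 0.563, 0.56) and the exosome subunit EXOSC4 (8.34 ± 2.08 and 5.84 ± 1.47, -0.45, and -0.28 without control replicate 1). TSR3 had 67.1% GC and RRP15 35.2%, and each of these 5 genes had an adjusted p of 0.467. After the GC correction their log2 fold changes were 0.36 for TTF1, 0.11 for ZNHIT6, -0.31 for TSR3, 0.20 for RRP15 and -0.25 for EXOSC4.

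Regulators and neighbours of the pathway also stayed under the threshold. MYC had 538, 337 and 297 FPKM in control and 393, 308 and 309 with I1, with control replicate 1 highest and the groups overlapping (log2 fold change -0.18 ± 0.231, limma adjusted p = 0.701, and 0.08 without control replicate 1). Of 10 tested genes for MYC, MAX and their partners 0 passed and the median was -0.06, with MGA, a MAX partner, at the lowest p (8.73 ± 1.69 and 10.8 ± 0.356 FPKM). MGA had a log2 fold change of 0.29, which was 0.14 without control replicate 1 and 0.13 after the GC correction. Of 9 further genes of polyamine metabolism 0 passed, median 0.02, and AMD1, which supplies the aminopropyl donor for spermidine synthase, had 18.6 ± 2.80 and 23.4 ± 2.54 FPKM. Of 10 genes for the 5S particle and the p53 response to nucleolar stress 0 passed, median -0.06, and TP53I3, a p53 target, had 4.48 ± 0.576 and 3.37 ± 0.749 FPKM. With the GC correction the log2 fold change of AMD1 went from 0.32 to 0.03 and that of TP53I3 from -0.34 to -0.12. At an unadjusted p under 0.05 these 3 lists held 0 genes, and without control replicate 1 their medians were 0.07, -0.12 and 0.07. With the GC correction the medians were, in the same order, 0.13, 0.03 and -0.0082.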

How the data were processed

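RNA of the 6 Kasumi-1 samples was isolated with Trizol and made into TruSeq Stranded mRNA libraries, per the labels' protocols. The submitters' processing notes name Trimmomatic, HISAT2, Cufflinks, HTSeq and hg38; for versions, roles, annotation and strand setting, nothing is given in the sources used here. FPKM values were deposited by the authors for 29810 genes; the name of the table names other cell lines and another agent, and it was used because its column names match these samples (0 columns unused).

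Symbols, exon lengths and GC content came from GENCODE release 29 (29703 genes matched), and promoter sequences from RefSeq. Of the 40 windows, 25 ended inside a transcript of their gene as written and 0 as reverse complement. Reads were recovered from the steps of the FPKM values; 95.9% of genes gave whole numbers within 0.05 reads in all libraries. Floors and counting error cover reads only.

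Groups were compared with limma 3.58.1 (R 4.3.3) on log2(FPKM + 1), its variance trend switched on, 2-sided and without a replicate term (tables: Python 3.11.15); fold changes of low genes are understated on this scale. The GC correction subtracted a spline with 5 degrees of freedom per library. The fit was tested on simulated data. In 5 simulations, with changes placed only in genes of higher read numbers, 91.3% of 2-fold changes passed the adjusted p. In a separate run where nothing was changed, 3 calls were made. The simulated reads held no GC trend, outlying library or pairing, so these figures check the fit and do not give its power in the real libraries.

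The 35 genes and the lists were chosen with earlier results of these data known. Given by library are, per role, the gene with the highest mean and the gene with the largest difference, and genes whose groups do not overlap (with GAR1, PPAN and IPO4 added after their values were seen); of the other lists the gene with the lowest p, and MYC. The replicate numbers in the titles were taken to pair the samples, since for equal numbers the deviations from group means had correlations of 0.476, 0.457 and 0.412. For unequal numbers they ran from -0.348 to -0.0987, where centring on the group mean itself lowers the values. No label states the pairing, so the pair counts and block p-values rest on a structure taken from these data. Replicates of a group differed by more than counting error in each case (chi-square divided by its degrees of freedom, 18.4 to 55.7). Alternatives were other pseudocounts, filters, scalings, weights, the block, the GC correction, protein-coding genes alone and leaving out each library.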

Additional observations from a re-analysis of the deposited data

How the results depend on the processing

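In each of 18 alternative settings 0 of the ribosome biogenesis and growth genes passed the threshold by limma, with a lowest adjusted p of 0.140 (replicate block); at an unadjusted p under 0.05 the count ran from 0 to 12. The median of the set stayed within the spread between pairs, between -0.05 (I1 replicate 2 left out) and 0.10 (control replicate 2 left out), so its sign is not fixed (-0.04 with TMM scaling, -0.01 with median scaling). It was 0.07 over the 26 genes with under 10% shared exon bases, a setting chosen after seeing the data. Over all genes the 4 calls became 0 with pseudocounts of 0.1 or 0.5, with no filter, with a mean of at least 5 FPKM or with protein-coding genes alone, 2 with quantile normalization, 14 with array weights, 1 with the GC correction, 2 with the replicate block and GC correction, and 0 to 2 without 1 library; the cause was not tested. The replicate block gave 6 and changed no call of the set.

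Of the 33 tested genes 19 kept the sign of their difference in all settings. With the GC correction, with and without the replicate block, the sign turned for NPM1 (-0.0097), WDR12 (-0.036), NHP2 (0.085), BYSL (0.023), BOP1 (0.045), PES1 (0.0069), NOP2 (0.0043), NOP16 (0.12), MRTO4 (0.095), SRM (0.0029) and SLC19A1 (0.0069). With TMM scaling it turned for NOP56 (-0.067), GAR1 (-0.038) and RCL1 (-0.043), with median scaling for NOP56 (-0.027) and RCL1 (-0.011), with quantile normalization for RCL1 (-0.068), and with array weights for NOP16 (0.12), MRTO4 (0.027) and MYC (0.093). Without 1 library the log2 fold changes ran from -0.10 to 0.074 for NOP56, -0.14 to 0.21 for GAR1, -0.033 to 0.10 for RCL1, -0.13 to 0.065 for NOP16, -0.15 to 0.051 for MRTO4 and -0.35 to 0.078 for MYC. With 3 libraries per group and this spread, changes well under 2-fold could not be told from none.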
